A study of Mus musculus with 48 samples.

Results

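The endothelium is the single layer of cells that lines a blood vessel. Its cells are held together by cadherin and claudin junctions, sense vascular endothelial growth factor (VEGF) and angiopoietin through receptor kinases, and make von Willebrand factor and nitric oxide. In the aorta this layer lies on an elastic wall of smooth muscle cells and elastic laminae, and it makes up a small share of the tissue. 10 genes used as endothelial markers are described here: Cldn5, Cdh5, Flt1, Kdr, Vwf, Emcn, Pecam1, Tek, Tie1 and Nos3. They were taken from a list of names, with 1 probe set each, the one with the highest mean among those that carry only that gene's symbol, out of 22180 genes with such a probe set. All 10 were among the 15337 genes tested.

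Mouse aortas were profiled on 48 Affymetrix arrays, in models that lack Eln (elastin), Efemp2 (fibulin-4) or Lox (lysyl oxidase), proteins of the elastic fibre and its crosslinking. Each model had wild-type (WT) and knockout (KO) aortas, split into the ascending (AA) and the descending (DA) aorta, at day 17.5 of gestation (E17.5) or 1 day after birth (P1). Each of the 24 groups had 2 arrays and each array took RNA of 8 pooled aortas, so the spread between 2 arrays is a spread between pools. Eln and Efemp2 mice were C57BL/6 and Lox mice were B6 albino; the alleles themselves, and whether a mouse of a WT group carried a deleted allele, are not given in the sources used here. No group was treated with an agent. Values are log2 signals, differences are log2 differences, and a difference is said to rise, fall or pass when its adjusted p from the limma fit over all tested genes was under 0.05. In such whole-tissue RNA, fewer endothelial cells and less RNA per endothelial cell cannot be told apart. With 2 arrays a group, a statement that groups did not overlap in a single pair is a description only. The share of all genes that did not overlap in a single pair was not taken.

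Array medians ran from 3.71 to 5.35. Signal of the deleted gene was between 9.20 and 11.91 in Eln WT arrays against 4.23 to 5.56 in Eln KO arrays, and between 9.55 and 11.48 in Lox WT against 6.26 to 8.71 in Lox KO. Efemp2 had no probe set of its own here, so that deletion was not checked. Among the Eln and Efemp2 arrays, 4 stood apart by a raised background: both Eln WT DA arrays at P1, and replicate 2 of the Efemp2 WT AA and of the Efemp2 WT DA arrays at P1. The median of 16010 probe sets without a gene symbol was 4.35 to 4.37 on these 4 and 3.73 to 4.14 on the other Eln and Efemp2 arrays of P1. On the Lox P1 arrays it was 4.67 to 4.74 in WT and 4.22 to 4.57 in KO, so it moved with genotype there. Its part in the Lox P1 differences was not tested. The differences of the 10 genes that are named as passing and rest on the 4 arrays are given with and without them. A pair that loses both arrays of a group has no value without them. In some comparisons all tested genes shifted together by a median beyond 0.1: -0.24 for Eln P1 and 0.15 for Lox P1 in DA less AA of WT, and 0.27 for Eln DA P1, -0.20 for Lox AA P1 and -0.17 for Lox DA P1 in KO less WT. Stages differed in overall signal, with array medians of 3.71 to 3.82 in Lox E17.5 and 4.85 to 5.35 in Lox P1, so no comparison of P1 with E17.5 within a genotype was made.

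The endothelial signal was clear on nearly every array. 8 of the 10 genes lay above the 95th percentile of 1373 olfactory and vomeronasal receptor genes, taken as genes of little signal in the aorta, on 48 of 48 arrays, and Kdr and Nos3 did so on 47. The probe sets were 17323755 (Cldn5), 17504399 (Cdh5), 17455346 (Flt1), 17448924 (Kdr), 17463205 (Vwf), 17402981 (Emcn), 17270937 (Pecam1), 17415469 (Tek), 17429206 (Tie1) and 17435282 (Nos3).

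Promoter sequences from RefSeq (build GRCm38.p6, 250 bases before to 50 after the start of transcription) matched 6 of the 10 genes: Cldn5, Flt1, Kdr, Emcn, Tek and Tie1. 4 are shown, those of the pair of genes that broke from the rest (Flt1 and Emcn) and, for contrast, of a tight-junction gene that moved with the rest (Cldn5) and of the other large VEGF receptor (Kdr). They are written 5′ to 3′ in the direction of the gene. Capitals mark AGGAAG or its other strand CTTCCT, a core that ETS factors bind.

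Flt1, chr5:147725962-147726261, minus strand: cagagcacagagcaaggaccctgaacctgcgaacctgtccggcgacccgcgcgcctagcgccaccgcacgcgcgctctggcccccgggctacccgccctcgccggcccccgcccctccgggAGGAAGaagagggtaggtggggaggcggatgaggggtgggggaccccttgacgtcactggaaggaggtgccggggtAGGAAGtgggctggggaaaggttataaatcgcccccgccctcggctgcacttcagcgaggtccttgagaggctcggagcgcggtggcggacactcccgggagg
Emcn, chr3:137340828-137341127, plus strand: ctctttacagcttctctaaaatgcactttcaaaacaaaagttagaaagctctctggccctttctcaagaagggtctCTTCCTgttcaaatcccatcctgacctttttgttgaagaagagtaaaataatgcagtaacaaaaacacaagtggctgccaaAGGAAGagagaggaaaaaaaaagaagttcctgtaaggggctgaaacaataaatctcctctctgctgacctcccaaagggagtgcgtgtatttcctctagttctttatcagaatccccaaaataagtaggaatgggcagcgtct
Kdr, chr5:75978406-75978705, minus strand: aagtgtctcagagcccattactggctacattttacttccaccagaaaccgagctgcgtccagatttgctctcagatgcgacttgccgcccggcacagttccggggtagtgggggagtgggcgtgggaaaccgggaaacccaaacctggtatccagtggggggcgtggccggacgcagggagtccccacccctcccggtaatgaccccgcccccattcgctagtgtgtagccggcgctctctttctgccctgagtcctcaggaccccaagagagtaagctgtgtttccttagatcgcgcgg
Cldn5, chr16:18776597-18776896, plus strand: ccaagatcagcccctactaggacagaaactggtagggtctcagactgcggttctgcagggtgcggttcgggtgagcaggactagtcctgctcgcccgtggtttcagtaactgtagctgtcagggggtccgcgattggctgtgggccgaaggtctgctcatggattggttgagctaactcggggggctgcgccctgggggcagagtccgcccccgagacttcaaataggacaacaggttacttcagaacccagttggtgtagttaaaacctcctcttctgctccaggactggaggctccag

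Flt1 and Emcn, the genes with opposite knockout differences below, both held the ETS core, at -129 and -53 from the start of transcription in Flt1 and at -174 and -93 in Emcn. Tie1 held it too, at -219 and 34, so 3 of 6 promoters had a match against 35.4% of 32851 promoters of the same length. The SOX core ACAAT was found in 2 of 6 (Emcn and Tek, 31% of all promoters), the GATA core AGATAA in 1 (Tek, 11.2%), the KLF site GGGTGTGG in 1 (Tie1, 3.56%) and the FOX core TAAACA in 0 (13.4%). Each was searched on both strands, and no match says only that these letters are not in this window.

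**Figure D1:**
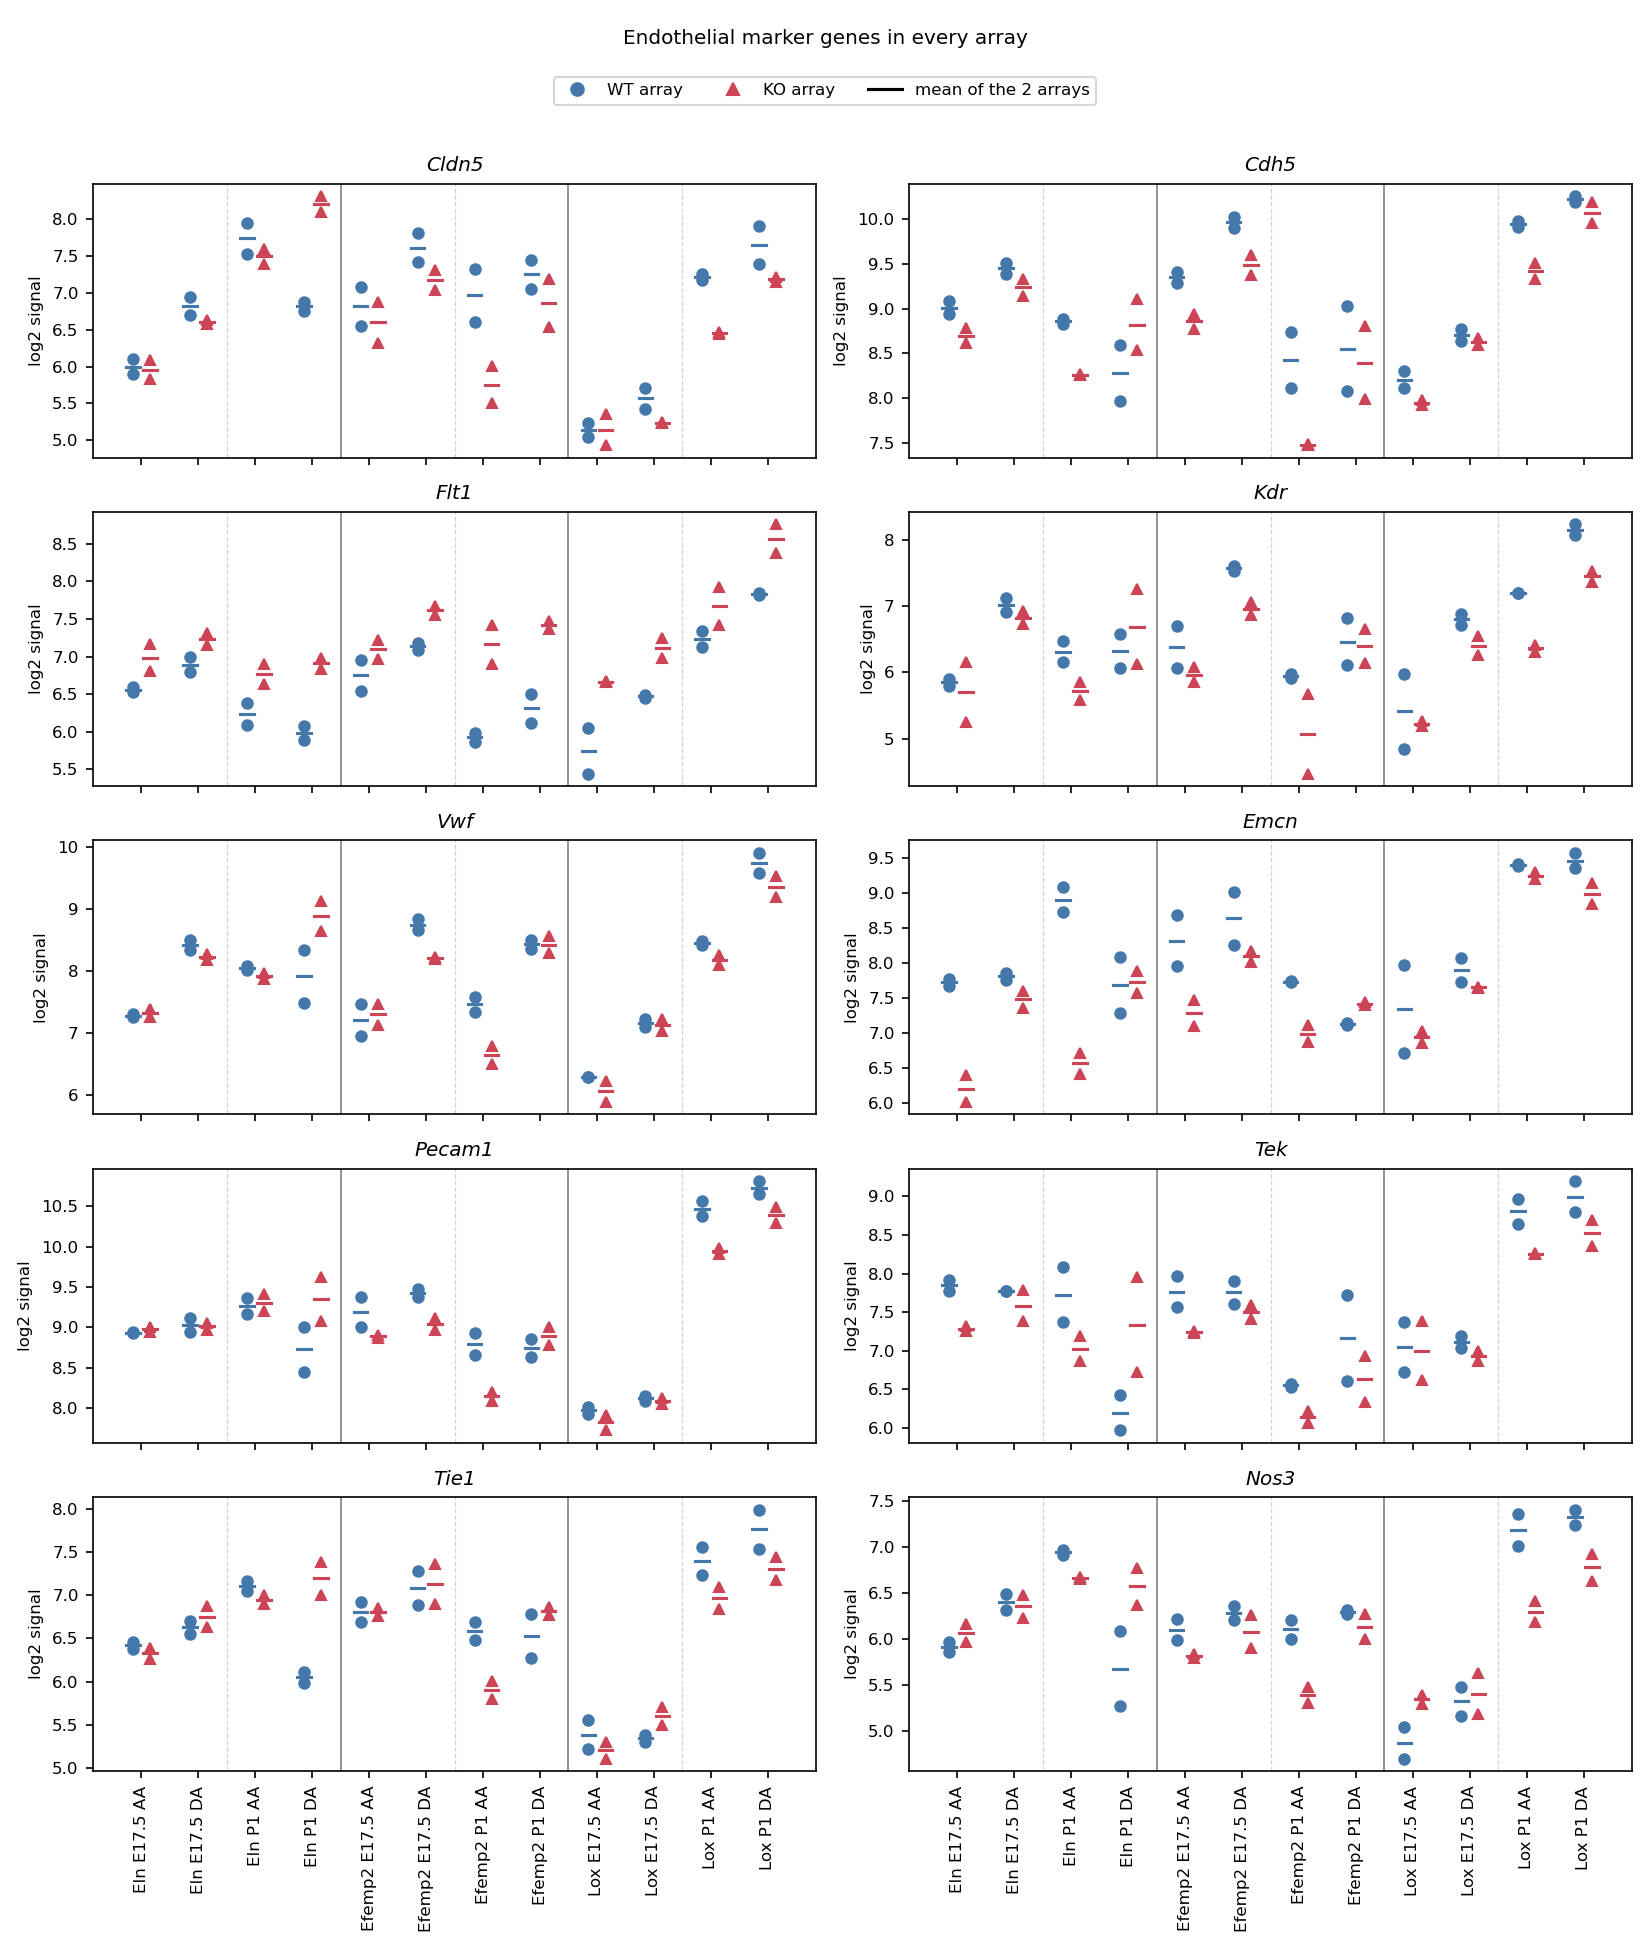
Log2 signal of the 10 endothelial genes on each of the 48 arrays (vertical axis) by model, stage and location (horizontal axis), with blue circles for WT, red triangles for KO and a bar for the mean of the 2 arrays. KO arrays of Flt1 sit above the WT arrays of the same pair in 12 of 12 pairs, and KO arrays of Emcn sit lowest in the Eln ascending aorta, at 6.02 and 6.40 at E17.5.

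The first question was whether the endothelial genes differ between the descending and the ascending aorta of WT mice. Over the 6 WT pairs, 3 of the 10 were higher in DA and 0 lower, against 4.64% of all tested genes higher and 3.96% lower. No member was lower at an unadjusted p under 0.05 in that limma fit either, and 5 were higher. The share of all genes at that unadjusted threshold was not taken. The 3 that rose were Vwf by 0.95 (SE 0.09, limma adjusted p = 5.9e-09), Kdr by 0.88 (SE 0.14, adjusted p = 8.14e-05) and Flt1 by 0.36 (SE 0.09, adjusted p = 0.00698). The median over the 10 was 0.13, beside -0.01 over all tested genes. Without the 4 high-background arrays these were 1.15, 1.11 and 0.54, and 5 passed, with Cldn5 at 0.52 (adjusted p = 0.00439) and Cdh5 at 0.42 (adjusted p = 0.00461) added.

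Vwf encodes the clotting protein that endothelial cells store and release. In WT of the Eln model at E17.5 its 2 AA arrays read 7.25 and 7.30 and its 2 DA arrays 8.34 and 8.49. In Efemp2 WT at E17.5 the AA arrays read 6.95 and 7.46 and the DA arrays 8.66 and 8.83. In Lox WT at E17.5 they read 6.28 and 6.29 against 7.10 and 7.22. At this stage both DA arrays were above both AA arrays in each model, by more than the gap between the 2 arrays of any group. At P1 the AA and DA arrays read 7.33 and 7.58 against 8.36 and 8.50 in Efemp2 WT, and 8.42 and 8.49 against 9.57 and 9.90 in Lox WT. Only in Eln WT at P1, where both DA arrays are of high background, did the groups overlap, at 8.02 and 8.08 in AA and 7.49 and 8.34 in DA. In single pairs Vwf passed at Eln E17.5 (1.14, adjusted p = 0.0111), Efemp2 E17.5 (1.54, adjusted p = 0.00017), Efemp2 P1 (0.97, adjusted p = 0.0252) and Lox P1 (1.28, or 1.13 less the median of all genes, adjusted p = 0.00198). In those pairs 0.0913%, 0.698%, 0.443% and 0.365% of all genes passed as higher. Without the high-background arrays the Efemp2 P1 difference was 0.92, with 1 AA and 1 DA array left.

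Kdr, the main signalling receptor for VEGF-A, followed the same order. Its WT arrays read 5.80 and 5.91 in AA against 6.92 and 7.13 in DA for Eln at E17.5, and 6.06 and 6.69 against 7.53 and 7.61 for Efemp2 at E17.5. Lox WT read 4.84 and 5.98 against 6.71 and 6.89 at E17.5, and 7.19 and 7.20 against 8.07 and 8.23 at P1. These groups did not overlap. Efemp2 at P1 also kept them apart, at 5.91 and 5.97 against 6.11 and 6.82, while Eln at P1 did not, at 6.15 and 6.47 against 6.07 and 6.59.

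The higher DA level of Vwf and Kdr was also measured in KO aortas. In KO arrays alone, Vwf rose from AA to DA by 0.94 in Eln (adjusted p = 0.000506), 1.34 in Efemp2 (adjusted p = 2.5e-06) and 1.12 in Lox (adjusted p = 3.47e-05). Kdr rose by 1.05, 1.17 and 1.13 in the same order (adjusted p = 0.0182, 0.00913 and 0.00891). Eln KO passed for 4 of the 10 genes, Efemp2 KO for 5 and Lox KO for 4, each in the higher direction, where 1.45%, 0.835% and 1.38% of all genes passed as higher. The further genes were Cldn5 (0.68) and Emcn (1.22) in Eln, Cdh5 (0.77), Cldn5 (0.84) and Tie1 (0.62) in Efemp2, and Cdh5 (0.67, or 0.56 less the median of all genes) and Flt1 (0.67, or 0.57) in Lox. Over the 12 WT and KO pairs, both DA arrays lay above both AA arrays in 11 for Vwf and Kdr, which held for 0.685% of all genes. Cdh5 did so in 10, Cldn5 in 9, Flt1 and Pecam1 in 8, Nos3 in 7, Tie1 in 6, and Emcn and Tek in 5. The share of all genes was not taken for counts under 11, so the lower counts are a description only. In 6 of 6 KO pairs both DA arrays lay above both AA arrays for Cdh5, Kdr and Vwf, which held for 1.03% of all genes. Markers of other cells also ran higher in DA of WT: 3 of 4 of neurons and Schwann cells passed as higher (median 0.92), 3 of 6 of heart muscle (0.47, with 1 lower), 2 of 6 of brown fat (0.45) and 2 of 6 of macrophages (0.29). Their part in the location difference was not tested.

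The Eln WT pair at P1 stood apart from the other 5. There 6 of the 10 genes were lower in DA, as were 22.2% of all tested genes, and both DA arrays are of high background. Less the median of all genes, Cldn5 differed by -0.69 and Emcn by -0.99, and the fitted differences were -0.92 (adjusted p = 0.00756) and -1.22 (adjusted p = 0.00286). Background moved with the group in this pair, and its part in the difference was not tested.

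**Figure D2:**
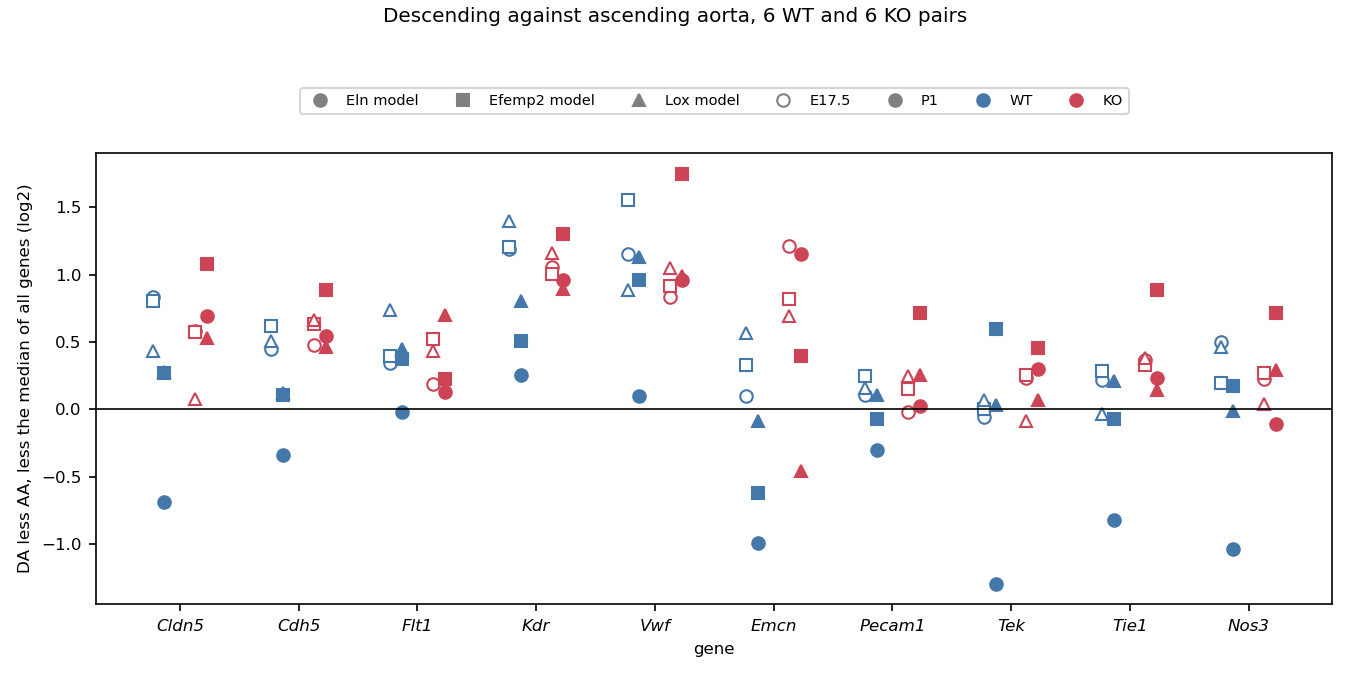
DA less AA of each endothelial gene (horizontal axis) as a log2 difference less the median of all tested genes (vertical axis), with 1 point for each of 6 WT (blue) and 6 KO (red) pairs, the marker shape giving the model and open or filled markers E17.5 or P1. Vwf lies above 0 in every pair, and the P1 pair of Eln WT is the lowest WT point for Emcn, at -0.99.

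The second question was what the loss of each elastic-fibre protein did to these genes. Flt1 was the only member that rose in each of the 3 models, while the other members had a negative difference in most pairs. The share of all genes with such signs was not taken. Flt1 encodes VEGF receptor 1, which binds VEGF-A and placental growth factor and, as a soluble form, holds VEGF-A away from Kdr. Averaged over the 4 pairs of a model, Flt1 rose by 0.56 in Eln KO (SE 0.11, limma adjusted p = 0.0015), 0.79 in Efemp2 KO (SE 0.11, adjusted p = 1.46e-05) and 0.69 in Lox KO (SE 0.11, adjusted p = 0.00033). In Eln KO, Flt1 was the 1 member that rose and Emcn the 1 that fell, where 2.74% of all genes rose and 0.541% fell. The Efemp2 value was 0.76 without the 4 high-background arrays (adjusted p = 0.00023). The Eln value was 0.44 without them (adjusted p = 0.071) and 0.44 with array background as a covariate (adjusted p = 0.0636). The array does not separate the full-length from the soluble form here.

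In Eln mice at E17.5 the Flt1 arrays read 6.52 and 6.59 in WT AA against 6.81 and 7.16 in KO AA, and 6.79 and 6.99 in WT DA against 7.15 and 7.31 in KO DA. At P1 they read 6.08 and 6.38 against 6.64 and 6.90 in AA, and 5.89 and 6.08 against 6.83 and 6.99 in DA. The WT and KO arrays did not overlap in any of these 4 pairs, though the last one holds both high-background WT arrays.

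In Efemp2 mice at E17.5 the Flt1 arrays read 6.54 and 6.96 in WT AA against 6.97 and 7.22 in KO AA, and 7.09 and 7.19 in WT DA against 7.55 and 7.68 in KO DA. The AA groups at E17.5 all but touched, and the DA groups did not overlap. At P1 they read 5.86 and 5.98 against 6.91 and 7.42 in AA, and 6.12 and 6.51 against 7.37 and 7.47 in DA. The P1 differences were 1.24 in AA (adjusted p = 0.00112) and 1.11 in DA (adjusted p = 0.00531). In these pairs 3.03% and 1.28% of all genes passed as higher. Without the 4 high-background arrays the AA difference was 1.30 and the DA difference 0.91, which no longer passed. Each of these values rests on the 1 WT array that is left in its pair.

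In Lox mice at E17.5 the Flt1 arrays read 5.44 and 6.05 in WT AA against 6.66 and 6.67 in KO AA, and 6.45 and 6.49 in WT DA against 6.98 and 7.25 in KO DA. At P1 they read 7.13 and 7.34 against 7.43 and 7.92 in AA, and 7.82 and 7.85 against 8.38 and 8.76 in DA. KO arrays were again the higher ones in each pair, and no single Lox pair passed the test for Flt1, with 0.92 at AA E17.5 (adjusted p = 0.125) and 0.74 at DA P1 (0.91 less the median of all genes, adjusted p = 0.218).

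Both KO arrays of Flt1 were thus above both WT arrays in 12 of 12 pairs, which held for 12 of the 15337 tested genes (0.0782%). It was 12 of 12 after cyclic loess as well and 11 of 12 after centring each array on its median. The other 11 were Adamts8, Anxa3, Ccn2, Col11a1, Col12a1, Col8a1, Gna14, Igfbp2, Kif26b, Plod2 and Wnt16, a list found after the values were seen. Of these, Col8a1, Col11a1 and Col12a1 encode collagen chains, Plod2 a collagen lysyl hydroxylase and Ccn2 connective tissue growth factor. Clca3a2 was the 1 gene (0.00652%) below WT in 12 of 12.

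**Figure D3:**
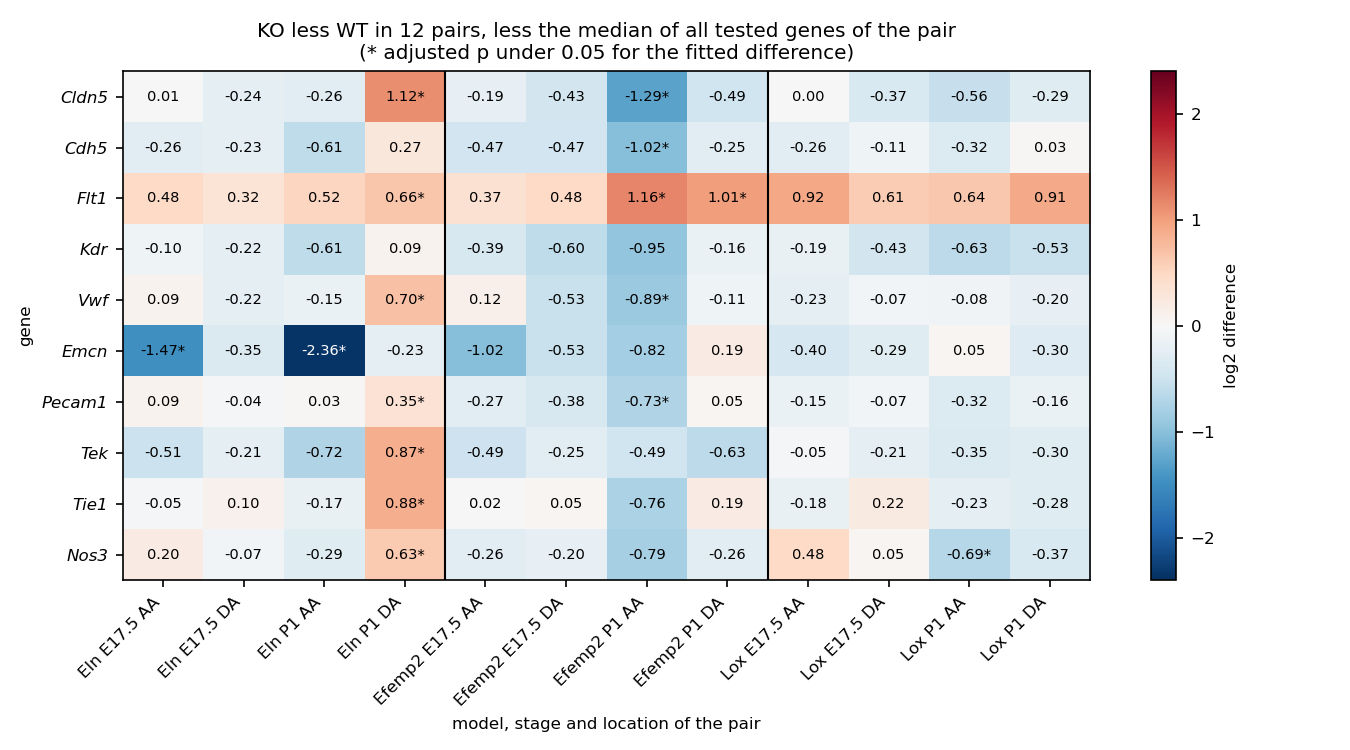
KO less WT of each endothelial gene (rows) in the 12 pairs of model, stage and location (columns), as log2 differences less the median of all tested genes of the pair, red for higher and blue for lower in KO. An asterisk marks an adjusted p under 0.05 for the fitted difference: the Flt1 row is above 0 in 12 of 12 pairs, and the 7 asterisks of the Eln P1 DA column rest on high-background WT arrays.

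Emcn, a sialomucin found on capillary and venous endothelium, broke from the others in the opposite direction. It fell by 1.04 in Eln KO (SE 0.15, limma adjusted p = 2.1e-05), and by 1.40 without the 4 high-background arrays (adjusted p = 3.31e-06). In Eln AA at E17.5 its arrays read 7.67 and 7.78 in WT against 6.02 and 6.40 in KO, and it fell by 1.52 (SE 0.29, adjusted p = 0.0126). In Eln AA at P1 they read 8.73 and 9.09 against 6.42 and 6.71, and it fell by 2.34 (SE 0.29, adjusted p = 2.41e-05). No other member passed in either pair, where 0.0848% and 0.665% of all genes passed as lower.

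In the descending aorta of the Eln model the Emcn values differed less between WT and KO. In Eln DA the Emcn arrays read 7.76 and 7.86 in WT against 7.36 and 7.60 in KO at E17.5, and 7.28 and 8.09 against 7.57 and 7.88 at P1, where the groups overlapped. The difference of the Eln effects, DA less AA, was 1.79 for Emcn (SE 0.29, limma adjusted p = 0.00228). At E17.5 alone, which holds none of the high-background arrays, it was 1.19 (SE 0.41, adjusted p = 0.999) and did not pass. In that contrast 0 of 15337 tested genes passed in either direction. At an unadjusted p under 0.05, 1 of the 10 members was higher, a count without a share of all genes. The lack of a call there does not show that the locations were alike. In the mean over stages 3 of the 10 genes passed, the others being Tek (1.10, adjusted p = 0.0458) and Tie1 (0.76, adjusted p = 0.031), where 3.13% of all genes passed as higher. Without the 4 arrays these were 0.37 and 0.22, and 0 of 10 passed; the Tek call was lost in 33 of 58 alternative settings. At P1 alone 7 of the 10 passed, where 8.6% of all genes passed as higher. Between stages, the Eln effect in DA was higher at P1 than at E17.5 by 1.60 for Cldn5 (adjusted p = 0.0241), the 1 member past the test, where 0.691% of all genes passed as higher. Both of these contrasts hold the pair of high-background WT arrays and have no value without them.

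Emcn in the other models was lower in KO in 7 of 8 pairs on the deposited scale. In Efemp2 AA it read 7.96 and 8.69 in WT against 7.09 and 7.47 in KO at E17.5, and 7.73 and 7.74 against 6.87 and 7.11 at P1. In Efemp2 DA it read 8.26 and 9.02 against 8.02 and 8.18 at E17.5, and 7.12 and 7.15 against 7.40 and 7.45 at P1, the pair with KO higher. The Efemp2 mean fell by 0.51 (SE 0.15, adjusted p = 0.0444), and by 0.50 without the 4 arrays, where it no longer passed (adjusted p = 0.0688). This call was lost in 36 of 58 alternative settings, 31 of them among the 48 that leave out 1 array. In Lox mice the arrays read 6.71 and 7.98 against 6.86 and 7.03 in AA E17.5, 7.73 and 8.08 against 7.64 and 7.66 in DA E17.5, 9.39 and 9.41 against 9.20 and 9.30 in AA P1, and 9.35 and 9.58 against 8.84 and 9.14 in DA P1. The Lox mean was -0.32 (adjusted p = 0.303).

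Brown fat markers (Ucp1, Cidea, Adipoq, Plin1, Fabp4 and Cd36) moved with Emcn in the Eln ascending aorta at P1. Their median difference there was -1.60 and 2 of 6 passed as lower, and the mean level of the 6 was 7.10 and 9.53 on the WT arrays against 6.47 and 6.90 on the KO arrays. At E17.5 the median was -0.23, 0 of 6 passed, and the level was 5.54 to 5.61 in WT against 5.39 to 5.41 in KO, beside the Emcn difference of -1.52. Macrophage markers differed by a median of -0.83 in Eln AA at P1, with 1 of 6 lower, and by -0.23 at E17.5. Fibroblast markers (Dcn, Lum, Dpt, Pdgfra, Col1a1 and Col3a1) were below WT at both stages: their mean level was 9.94 to 10.05 in WT against 9.23 to 9.57 in KO at E17.5, with 1 of 6 lower and a median of -0.50, and 10.10 to 10.26 against 9.42 to 9.80 at P1, with 2 of 6 and -0.56. Mesothelium markers read 6.62 to 6.76 against 6.32 to 6.36 at E17.5 and 7.75 to 7.80 against 7.14 to 7.41 at P1, with 0 of 4 past the test at either stage. Platelet markers read 7.46 to 8.02 against 6.63 to 7.11 at P1, with 0 of 4 past the test. The part of these cells in the Emcn difference was not tested.

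Cldn5 and Cdh5, of endothelial junctions, fell in Efemp2 KO. Cldn5 (claudin-5, of tight junctions) fell by 0.56 (SE 0.13, limma adjusted p = 0.00691) and Cdh5 (VE-cadherin, of adherens junctions) by 0.52 (SE 0.13, adjusted p = 0.014), and without the 4 high-background arrays they fell by 0.70 and 0.71. With Emcn, 3 of the 10 fell and 1, Flt1, rose, against 0.665% and 3.14% of all genes. Values of the other 6 were negative too, from -0.09 (Tie1) to -0.49 (Kdr). The median over the 10 was -0.39, beside 0.04 over all tested genes. Without the 4 arrays 6 fell, with Vwf, Pecam1, Tek and Nos3 added and Emcn lost, and in a fit to the Efemp2 arrays alone 0 fell.

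The ascending aorta at P1 held most of the calls. Cldn5 there read 6.61 and 7.32 in WT against 5.51 and 6.00 in KO, and it fell by 1.21 (SE 0.25, adjusted p = 0.00663). Cdh5 read 8.12 and 8.74 against 7.48 and 7.49, and it fell by 0.95 (SE 0.25, adjusted p = 0.0311). Vwf read 7.33 and 7.58 against 6.50 and 6.78, and it fell by 0.81 (SE 0.22, adjusted p = 0.0333). Pecam1, an adhesion molecule of the cell borders, read 8.66 and 8.93 against 8.09 and 8.20, and it fell by 0.65 (SE 0.19, adjusted p = 0.0445). WT and KO arrays did not overlap in any of the 4 genes, a description of genes already called in this pair. So 4 of the 10 fell and Flt1 rose, where 0.678% and 3.03% of all genes did. 1 WT array of this pair is of high background, and without it and the other 3 the differences were -1.56, -1.26, -0.94 and -0.78. These values rest on the 1 WT array that is left. The Pecam1 call was lost in 27 of 58 alternative settings, 23 of them among the 48 that leave out 1 array.

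In the descending aorta at P1 the differences of Cldn5, Cdh5, Vwf and Pecam1 were -0.39, -0.16, -0.01 and 0.15, none past the test. The difference of effects between DA and AA passed for 0 of the 10 genes in Efemp2 by limma, at P1 and in the mean over stages. 0% of all genes passed as higher in either. At an unadjusted p under 0.05 there were 6 and 2 of the 10 genes, without a share of all genes at that threshold.

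Markers of macrophages (Cd68, Lyz2, Itgam, Csf1r, Adgre1 and Mrc1) moved with the Efemp2 knockout. 4 of 6 rose, with a median difference of 0.87, and their mean level ran from 6.34 to 7.38 on the 8 WT arrays and from 7.51 to 8.25 on the 8 KO arrays. In AA at P1 the median was 0.97 and 3 of 6 rose. Smooth muscle markers differed by a median of 0.17 in Efemp2 KO and 0 of 8 passed, and markers of endocardium and valve by 0.04 with 1 of 5 higher. Brown fat markers read 6.44 to 6.96 in WT against 6.05 to 6.06 in KO in AA at P1 and 7.69 to 8.63 against 6.65 to 6.71 in DA at P1, with 1 of 6 lower in each and medians of -0.55 and -1.35. In AA at P1, mesothelium markers read 6.55 to 7.57 against 6.36 to 6.46, with 1 of 4 lower, and platelet markers 6.81 to 7.20 against 7.38 to 7.48, with 0 of 4 past the test. The part of these cells in the endothelial values was not tested.

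In Lox KO, Flt1 was the only one of the 10 past the test, against 0.561% of all genes higher and 1% lower. The other 9 were negative, from -0.20 (Tie1) to -0.53 (Kdr), with a median over the 10 of -0.26 beside -0.09 over all tested genes. At an unadjusted p under 0.05 by limma there were 5 lower genes, and the share of all genes at that threshold was not taken. Cldn5 and Kdr passed as lower when the Lox arrays were fitted alone. That fit called 767 of all tested genes in either direction, against 240 in the main fit. Among the single Lox pairs Nos3, the endothelial nitric oxide synthase, fell in AA at P1. It read 7.01 and 7.36 in WT against 6.18 and 6.41 in KO, and it fell by 0.89 (SE 0.22, adjusted p = 0.0477), where 0.437% of all genes passed as lower. With each array centred on its median it fell by 0.69 and did not pass (adjusted p = 0.177), and the call was lost in 38 of 58 alternative settings, 34 of them among the 48 that leave out 1 array. In that Lox pair the brown fat median was -1.21 with 0 of 6 past the test, and the macrophage median 0.29 with 0 of 6. The median of probe sets without a gene symbol was 4.67 and 4.69 on its WT arrays against 4.38 and 4.22 on its KO arrays.

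In the Eln descending aorta at P1, 7 of the 10 genes were higher in KO, as were 19.8% of all tested genes. Less the median of all genes, Cldn5 was higher by 1.12, Tie1 by 0.88, Tek by 0.87, Vwf by 0.70, Flt1 by 0.66, Nos3 by 0.63 and Pecam1 by 0.35. Tek and Tie1 encode the angiopoietin receptor and its partner. Tek read 5.97 and 6.43 in WT against 6.72 and 7.95 in KO, and the Tie1 group means were 6.05 and 7.19, with gaps of 0.12 and 0.39 between the arrays of a group. The groups did not overlap, but both WT arrays are of high background, and no value without them exists. The endocardium and valve list also differed there, by a median of 0.97 with 3 of 5 higher. Over the Eln mean the 7 genes other than Emcn, Flt1 and Tie1 lay between -0.15 and 0.22, and without the 4 arrays Cldn5, Vwf, Tie1 and Nos3 changed sign, at -0.17, -0.10, -0.04 and -0.06.

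Across all 12 pairs both KO arrays lay below both WT arrays more often than above for each member other than Flt1. The share of all genes with that pattern was not taken. Both KO arrays were below both WT arrays in 9 pairs for Cdh5 and Emcn, 8 for Tek and 7 for Vwf, where 1.98% of all genes reached 7 or more. The count was 6 for Cldn5, Kdr and Pecam1, 5 for Nos3 and 4 for Tie1. The share of all genes was not taken for counts under 7, so the lower counts are a description only. These counts are on the deposited scale, and Lox P1 pairs carry a shift of all genes in the same direction. In Lox, 10.9% of all genes had KO below WT in 3 or more of 4 pairs.

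**Figure D4:**
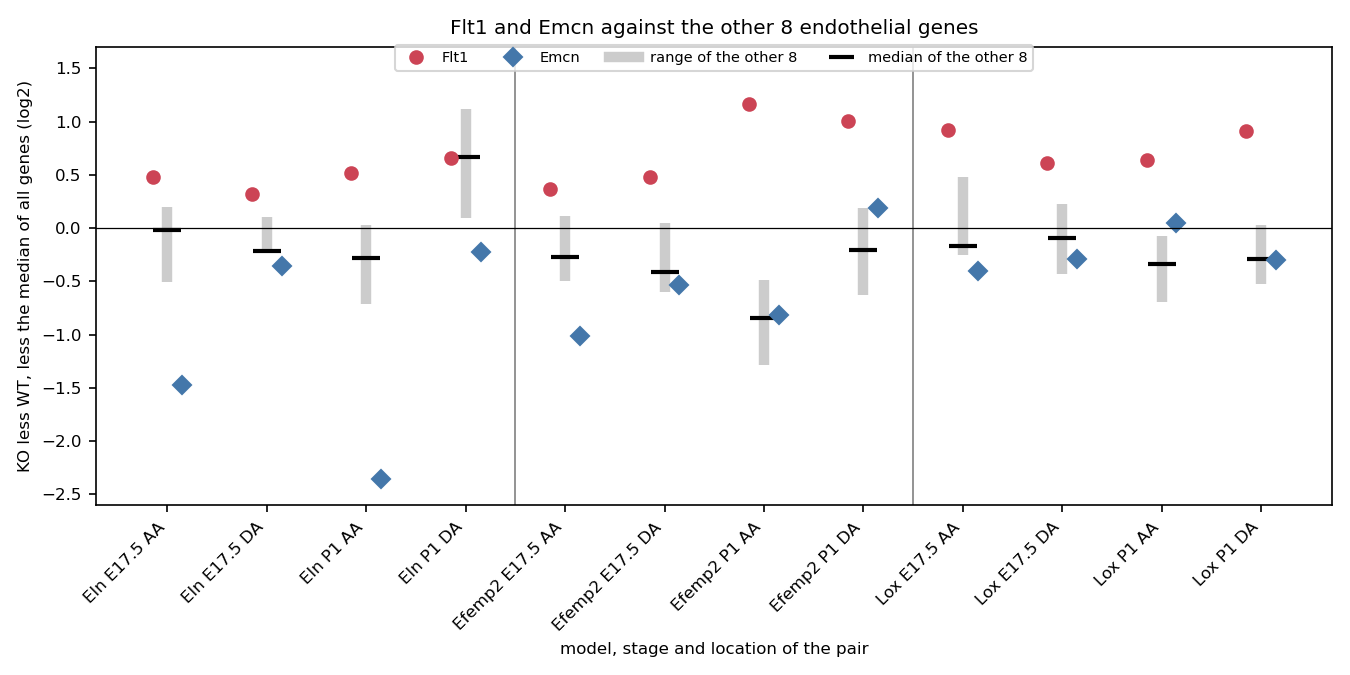
KO less WT of Flt1 (red circles) and Emcn (blue diamonds) in the 12 pairs, as log2 differences less the median of all tested genes, beside the range (grey bar) and median (black line) of the other 8 endothelial genes. Flt1 lies above all 8 in 11 of 12 pairs, Emcn below all 8 in 6 of 12, and the median of the 8 is below 0 in 11 of 12.

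Flt1 and Emcn were the only members more than 1 from the median of the other 9 in any of the 12 KO less WT pairs. The DA less AA pairs were not part of this count. Flt1 was so in 4 pairs, by 1.98 in Efemp2 AA P1, 1.20 in Lox DA P1, 1.17 in Efemp2 DA P1 and 1.10 in Lox AA E17.5. Emcn was so in 2, by -2.10 in Eln AA P1 and -1.48 in Eln AA E17.5. The 2 VEGF receptors differed in sign in KO tissue: Kdr was negative in 11 of 12 pairs and Flt1 positive in 12 of 12. Kdr passed in no mean knockout contrast (limma adjusted p = 0.767 in Eln, 0.13 in Efemp2 and 0.132 in Lox). The share of all genes with such sign counts was not taken.

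Over the 24 group means, centred within each model and stage, the members varied together to different degrees. These means are made of the same KO and DA differences as above, so the low values of Flt1 and Emcn restate those differences. The median Pearson correlation of a member with the other 9 was 0.84 for Cldn5, 0.73 for Pecam1, 0.72 for Cdh5 and Tie1, 0.71 for Nos3, 0.68 for Vwf and Tek, 0.59 for Kdr, 0.34 for Emcn and 0.07 for Flt1. Kdr and Vwf were the closest pair, at 0.93. The genes most like Flt1 over all tested genes were Uso1 (0.95), Ddah1 (0.93) and Anxa3 (0.92), and those most like Emcn were Itih5 (0.83), Lepr (0.83) and Sned1 (0.81). The mean of the other 8 was most like Cldn5 (0.96), Mmrn2 (0.95) and Cdh5 (0.95), of which Cldn5 and Cdh5 are part of that mean and Mmrn2 encodes an endothelial matrix protein. These correlations describe groups that share models and stages, with 24 points each.

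A wider list of 58 other endothelial genes, all tested, gave 15 higher and 3 lower in DA of WT, where 4.64% of all tested genes were higher and 3.96% lower, so that the lower count is near the share of all genes. Those with the largest differences were Plvap (0.90), the protein of endothelial diaphragms, Sox18 (0.66), a transcription factor, Nrp2 (0.63), a VEGF co-receptor, and Esm1 (0.62), each also past the test without the 4 high-background arrays. By role, 5 of 15 junction and surface genes, 3 of 6 nitric oxide, endothelin and clotting genes, 2 of 7 VEGF ligands and receptors and 2 of 11 transcription factors were higher. The median over the 58 was 0.10.

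In the knockouts few genes of the wider list passed: 2 higher and 1 lower in Eln, 3 and 3 in Efemp2, and 3 and 0 in Lox. Of all tested genes 2.74% were higher and 0.541% lower in Eln, 3.14% and 0.665% in Efemp2, and 0.561% and 1% in Lox, so the Eln counts and the higher count in Efemp2 are near those shares. Their medians were 0.01, -0.03 and -0.13, beside 0.06, 0.04 and -0.09 over all tested genes. In Efemp2 KO the 3 that rose were the leukocyte adhesion molecules Sele (0.66, limma adjusted p = 0.00147), Vcam1 (0.55, adjusted p = 0.0011) and Icam1 (0.34, adjusted p = 0.0453). They are 3 of the 4 genes listed under activation, and Icam1 was named after the values were seen. As the higher count is near the share of all genes, their shared role is a description only. Vcam1 and Icam1 are also made by other cells, and macrophage markers rose in the same arrays, with the values given above. The 3 that fell were Ramp2 (-0.47), Egfl7 (-0.46) and Gja5 (-0.42), of an adrenomedullin co-receptor, a secreted endothelial factor and an arterial gap junction. In Lox KO Esm1 rose by 1.06 (SE 0.17, adjusted p = 0.00033), Sele by 0.52 and the transcription factor Foxc2 by 0.43. In Eln KO Mcam rose by 0.46 and Foxc2 by 0.36, both without a call once the 4 high-background arrays were left out, and Cav1, of caveolae, fell by 0.46.

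The ligands of Flt1 did not pass in any mean knockout contrast. Vegfa differed by -0.25 in Eln, -0.02 in Efemp2 and 0.08 in Lox, and Pgf (placental growth factor) by 0.37, -0.33 and 0.11. Of the 7 VEGF ligands and other receptors 0 passed by limma in these 3 contrasts. An adjusted p above the threshold does not show that their levels were equal.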

How the data were processed

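RNA of aorta pools, 5 ng amplified and biotin-labelled per the labels' protocols, was measured on 48 arrays. The authors deposited log2 signals per probe set, and the submitters' processing notes name RMA and Affymetrix Expression Console. Versions, array annotation and genome build are not given in the sources used here. RMA equalizes arrays run together, so levels across sets run apart are not comparable. The sample labels do not name such sets.

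Of 41345 probe sets, 23521 carried 1 gene symbol in the platform annotation, 1814 several and 16010 none. Genes with at least 1 group mean of 4.94, the median over single-symbol probe sets, were tested (15337). A model with 24 group means was fitted with limma 3.58.1 (R 4.3.3, statmod 1.5.0), with 24 residual degrees of freedom, eBayes and Benjamini-Hochberg adjustment over all tested genes of a contrast, at 0.05. P values measure the spread between pools. On data simulated for the Efemp2 mean contrast over 15337 genes, 97% of changes of 1 and 57% of changes of 0.5 were recovered.

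Members and lists were chosen with earlier results of these data known. The named genes are the 10 members, the 3 genes most like Flt1, Emcn and the mean of the others, and the 4 largest passing genes of the wider list per mean contrast. DA less AA in KO, the counts of groups that do not overlap, Gja5, Icam1 and the genes apart in 12 of 12 pairs were added after the values were seen. Alternatives were no filter, cyclic loess, array median centring, only the arrays of the comparison, trended robust variances, fixed and random replicate blocks, array background as a covariate, leaving out 4 high-background arrays, the mean of all probe sets and leaving out each array. The precision is limited by the number of arrays, 2 a group, and by the raised background of 4 Eln and Efemp2 arrays.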

Additional observations from a re-analysis of the deposited data

Results flagged for a closer look

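Differences between effects passed the test for several endothelial genes in the Eln model, all of which involve the Eln WT descending aorta at P1 with its high-background arrays. The KO effect in the descending less that in the ascending aorta, over both stages, was 1.79 for Emcn (SE 0.29, limma adjusted p = 0.00228), 1.10 for Tek (SE 0.33, adjusted p = 0.0458) and 0.76 for Tie1 (SE 0.21, adjusted p = 0.031). At P1 alone it was 2.38 for Emcn (adjusted p = 0.00115), 1.84 for Tek (adjusted p = 0.0124), 1.63 for Cldn5 (adjusted p = 0.0058), 1.30 for Tie1 (adjusted p = 0.00643), 1.17 for Nos3 (adjusted p = 0.0149), 1.13 for Cdh5 (adjusted p = 0.0359) and 1.11 for Vwf (adjusted p = 0.0204), beside a median of 0.27 over all tested genes and 8.6% of them passing as higher. The KO effect in the descending aorta at P1 less that at E17.5 was 1.60 for Cldn5 (SE 0.36, adjusted p = 0.0241), where the median of all tested genes was 0.24 and 0.691% of them passed as higher. Without the high-background arrays the P1 pair has no value, and the location difference at E17.5 was 1.19 for Emcn, which did not pass. In the main fit 0 of 15337 tested genes passed that E17.5 contrast in either direction.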

How the results depend on the processing

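Vwf higher in DA of WT, Flt1 higher in Efemp2 and Lox KO and Emcn lower in Eln KO kept their direction and passed in all 58 settings, with Flt1 at 0.68 to 0.86 in Efemp2 KO and Emcn at -1.40 to -0.94 in Eln KO. Counts past the test moved more. Over all tested genes the main fit called 1318 in WT, 504 in Eln, 584 in Efemp2, 240 in Lox and 5260 over the 12 single pairs. With only the arrays of the comparison these were 845, 352, 196, 767 and 3876, and after cyclic loess 1283, 383, 549, 209 and 2490. In the main fit 7 of the single-pair calls of members lay in Eln DA P1, where 19.8% of all genes were higher. The counts that follow are of the 10 members. In WT, DA less AA gave 3, and 5 after cyclic loess or without the 4 high-background arrays. Eln KO gave 2, and 1 with the background covariate or without those 4. Efemp2 KO gave 4, and 9 after cyclic loess, 7 after median centring, with the covariate or without the 4, and 1 with only its own arrays. Lox KO gave 1, and 3 with only its own arrays or the covariate. The 12 single pairs gave 16, and 8 with only their own arrays and 9 without the 4, over 11 pairs. The KO effect in DA less AA gave 3, then 1 after cyclic loess, centring or the covariate and 0 without the 4. Its P1 less E17.5 counterpart gave 0, and 1 with only its own arrays, the random block, the covariate or without the 4. Why was not tested.

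Leaving out 1 array at a time, the counts ranged from 3 to 5 in WT (5 without replicate 2 of Efemp2 WT DA P1), 2 to 2 in Eln, 2 to 6 in Efemp2 (2 without replicate 2 of Efemp2 KO DA P1), 1 to 2 in Lox (2 without replicate 1 of Lox WT AA E17.5), 10 to 19 over single pairs (10 without replicate 2 of Efemp2 KO AA P1), 1 to 4 for DA less AA effects (1 without any of 7 Eln arrays) and 0 to 2 for P1 less E17.5 effects. A group left with 1 array is assumed to vary like the others.

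Only values that had not passed changed sign. Without the 4 arrays Emcn became 0.083, Tek 0.26 and Tie1 0.22 in WT DA less AA, and Cldn5 -0.17, Vwf -0.10, Tie1 -0.043 and Nos3 -0.059 in Eln KO. After cyclic loess Tie1 in WT became 0.0076. Leaving out single arrays, Pecam1 ranged from -0.021 to 0.072 and Nos3 from -0.038 to 0.099 in WT, and Tek from -0.231 to 0.075 in Eln KO.

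Whether same-numbered arrays of AA and DA came from the same pool is not given in the sources used here. Deviations of same-numbered arrays correlated from -0.25 to 0.36, above 0.1 in 7 of 36 cases. These cases mix AA and DA of the same genotype with groups of different genotype, so they cannot settle whether arrays are paired. The main fit treated the arrays as unpaired. With the replicate block the counts were 4 in WT, 2 in Eln, 3 in Efemp2, 1 in Lox, 15 in single pairs and 4 for DA less AA effects.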
